A study of Mus musculus with 12 samples.

Results

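The ADAM metalloproteases examined here are Adam10, Adam17, Adam19, Adam9, Adam15 and Adam8, 6 of the 34 genes whose symbol is Adam followed by a number among the 55401 genes in the files. They were taken as a given list of symbols, selected on measured values of the comparison between the cell populations described below. Their differences between those populations are therefore given as a description, without a test. These 6 are also all the numbered ADAM genes with enough reads to be tested. The other 28 fell below the low-count filter, 15 of them with 0 reads in every library, and the 6 held 65140 reads, or 99.3% of the reads of the 34 genes.

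Polyadenylated RNA was sequenced from 2 CD4 T cell populations sorted from spleens of C57BL/6 mice infected with Leishmania donovani, the parasite of visceral leishmaniasis, and taken at day 21 of infection. The study asked how the populations compare, since both carry CXCR5, PD-1, ICOS and TCF-1. TLCP libraries (6) came from LAG-3+ CXCR5+ cells with low to intermediate PD-1, and Tfh libraries (6) came from T follicular helper cells (CXCR5+ PD-1hi), described in the series design as mostly of the germinal center. CD4 T cells were enriched magnetically from each spleen before the populations were separated on a flow sorter. All groups are infected, so no library shows these genes in the spleen of an uninfected mouse. The series design gives 6 mice and both populations are numbered 1 to 6. The ages and sexes of the mice are not given in the sources used here.

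ADAM proteins (a disintegrin and metalloproteinase) are proteases anchored in the membrane. They are made as inactive precursors whose prodomain is removed on the way to the cell surface, and the active forms cut the extracellular parts of receptors, cytokines and adhesion molecules close to the membrane, a process called shedding. On lymphocytes ADAM10 and ADAM17 are the best known sheddases: ADAM10 makes the ligand-driven cut in Notch receptors, ADAM17 releases TNF, and both release LAG-3, the surface protein used here to sort TLCP.

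The catalytic centre of an active ADAM holds a zinc ion between 3 histidines, with a glutamate next to the first of them. The 33 coding bases from the first to the last of these histidines are shown because they mark the 6 genes as genes of proteases, which not every ADAM is. They are read from GENCODE M21 transcripts on GRCm38, 5′ to 3′ on the strand of the gene, with the codons of the 3 histidines and of the glutamate in capitals.
Adam10: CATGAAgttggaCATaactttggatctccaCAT
Adam17: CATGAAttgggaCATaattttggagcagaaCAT
Adam19: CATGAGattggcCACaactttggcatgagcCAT
Adam9: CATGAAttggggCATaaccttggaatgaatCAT
Adam15: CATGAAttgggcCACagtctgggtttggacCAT
Adam8: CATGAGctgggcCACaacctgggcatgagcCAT
The stretch of Adam10 lies at chr9:70754296-70761585 on the plus strand, across exons 9 and 10 of 16, so that this interval of 7290 bases includes an intron. That of Adam17 lies in exon 12 of 20 (chr12:21336732-21336764, minus strand). In the other genes it lies in exon 11, at chr11:46125050-46125082 on the plus strand for Adam19, chr8:24990326-24990358 on the minus strand for Adam9, chr3:89344780-89344812 on the minus strand for Adam15 and chr7:139987893-139987925 on the minus strand for Adam8. Adam19 and Adam8 shared 29 of 33 bases, the most of any pair, and Adam10 and Adam17 shared 26. The fewest shared bases were 19, in Adam10 with Adam8, Adam10 with Adam15 and Adam17 with Adam8. The pattern searched for held these histidine and glutamate codons and also glycine codons at fixed places between the histidines. Of 33 numbered ADAM genes with a coding transcript, 20 held this pattern: all 6 genes described here and 14 of the other 27. Adam11, Adam22 and Adam23 were among those without it.

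Adam19, well expressed in both populations, stood 2.73-fold higher in TLCP than in Tfh, at a mean of 279 ± 25.2 CPM in TLCP and 102 ± 11.6 CPM in Tfh (SD, n = 6 each). Adam8 stood 3.09-fold higher, at a level near the detection limit in Tfh. Adam10 was 1.21-fold lower in TLCP with TMM scaling, although its log2 difference turned to 0.02 in TPM. The ranges of Adam17, Adam9 and Adam15 overlapped between the populations. CPM here means read counts as a part of all reads assigned to genes, per 1000000 reads, scaled between libraries by TMM, a scaling that assumes that most genes do not change. Each difference is a log2 fold change of TLCP over Tfh with its standard error (SE). Because the libraries are bulk RNA, fewer cells making a transcript and less of it per cell cannot be told apart.

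The populations differed widely, which sets the scale for these 6 genes. Among 12015 genes tested with the quasi-likelihood test of edgeR, 33.2% had an adjusted p under 0.05 (3983 genes, 16.8% higher and 16.4% lower in TLCP). For 17.2% of the tested genes the 6 TLCP values and the 6 Tfh values did not overlap, 8.30% being higher and 8.86% lower in TLCP. Among the 6 ADAM genes, 2 were higher without overlap, 1 was lower without overlap and 3 overlapped. Their median log2 fold change was 0.34, against -0.0041 over all tested genes. Since the genes were listed with this comparison in view, nothing is read from these counts.

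The libraries held 8531523 to 9896009 reads assigned to genes in TLCP and 6939770 to 12688306 in Tfh. A count of 0 in a library allows up to 0.236 to 0.432 CPM (3 counts of the reads assigned to genes, before TMM scaling, counting error only). The genes of the sort went with the labels: Lag3 ran from 140 to 234 CPM in TLCP and from 28.8 to 58.6 CPM in Tfh, and Pdcd1, which encodes PD-1, from 32.5 to 44.3 CPM in TLCP and from 266 to 346 CPM in Tfh. Cxcr5 was found in both, at 216 to 353 CPM in TLCP and 728 to 965 CPM in Tfh. CD4 T cell markers summed to 2269 to 2913 CPM in TLCP and 3114 to 3449 CPM in Tfh, with 5 of 6 lower in TLCP. Markers of other cells also moved with the populations. The B cell list summed to 4572 to 23597 CPM in TLCP and 1024 to 1857 CPM in Tfh (8 of 9 genes higher), and plasma cell markers to 597 to 3237 CPM in TLCP and 32.0 to 394 CPM in Tfh (4 of 5 tested higher). Basophil and mast cell markers summed to 26.1 to 96.2 CPM in TLCP and 0.239 to 7.17 CPM in Tfh (5 of 5 tested higher), and dendritic cell markers to 7.57 to 20.7 CPM in TLCP and 0.708 to 7.01 CPM in Tfh (2 of 3 tested higher). The remaining lists had no gene called higher. Macrophage and monocyte markers summed to 30.2 to 111 CPM in TLCP and 17.8 to 82.3 CPM in Tfh (0 of 3 tested called). Neutrophil markers summed to 5.96 to 54.5 CPM in TLCP, where Ly6g was at 0, and 0.478 to 37.4 CPM in Tfh (0 of 4 tested called). CD8 T cell and NK cell markers summed to 9.85 to 20.8 CPM in TLCP and 15.1 to 22.3 CPM in Tfh (1 of 3 tested lower), and erythroid and platelet markers to 37.1 to 105 CPM in TLCP and 3.71 to 85 CPM in Tfh, where Pf4 was at 0 (0 of 4 tested called). The most abundant pair of genes was Cd4 and Cd28 in the CD4 T cell list, Ighm and Ms4a1 in B cells, Jchain and Ighg2b in plasma cells, Mcpt8 and Prss34 in basophils and mast cells, Itgax and Zbtb46 in dendritic cells, Lyz2 and Cd68 in macrophages, Mpo and S100a9 in neutrophils, Klrb1c and Cd8b1 in CD8 T and NK cells, and Hbb-bs and Hbb-bt in the erythroid list.

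Adam10, the protease that makes the activating cut in Notch receptors, had the highest mean level per length of the 6 transcripts. Its lowest, median and highest values were 199, 222 and 234 CPM in TLCP and 237, 267 and 298 CPM in Tfh. The ranges did not overlap, but only a narrow gap separated the highest TLCP library from the lowest Tfh library. The log2 fold change was -0.27 with an SE of 0.067, and the TLCP library lay below the Tfh library of the same number in all 6 pairs under this scaling. Library to library the gene was steady, with a coefficient of variation of 5.74% in TLCP and 9.64% in Tfh. The gene lies at chr9:70678997-70780229 on the plus strand (GRCm38, as for the positions that follow).

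Adam17, also called TACE, releases TNF and its receptors from the cell surface. It ran from 95.4 to 113 CPM in TLCP, with a median of 100.4 CPM, and from 95 to 120 CPM in Tfh, with a median of 108 CPM. The ranges lay almost on top of each other, and the log2 fold change was -0.06 with an SE of 0.071. The gene lies at chr12:21323509-21373632 on the minus strand, and 311 bases of its exons overlap those of Iah1 on the other strand. Reads on the opposite strand came to 2.08% of the reads of Adam17, the highest share among the 6 genes.

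Adam19, or meltrin beta, is known for cutting neuregulins and for a role in heart development in mice. In TLCP its lowest, median and highest values were 237, 278 and 314 CPM. In Tfh they were 88.5, 97.4 and 119 CPM. Every TLCP library thus stood above every Tfh library, with a gap between the groups wider than either group. The log2 fold change was 1.45 with an SE of 0.080, and the coefficient of variation was 9.03% in TLCP and 11.4% in Tfh. Leaving out each library in turn moved the log2 fold change between 1.41 and 1.5. The gene lies at chr11:46055992-46147343 on the plus strand, and 1067 bases of its exons overlap Gm16033 and Gm16034 on the other strand.

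Adam9, or meltrin gamma, is a widely expressed relative of Adam19. Its lowest, median and highest values were 13.3, 14.4 and 20.8 CPM in TLCP and 8.73, 11.4 and 18.0 CPM in Tfh. The upper part of the Tfh range reached into the TLCP range, through replicate 4 of Tfh at 18.0 CPM. The log2 fold change was 0.40 with an SE of 0.17. The gene lies at chr8:24949611-25016927 on the minus strand.

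Adam15, or metargidin, carries a disintegrin domain that binds integrins. It ran from 3.63 to 10.5 CPM in TLCP, with a median of 7.56 CPM, and from 4.43 to 7.17 CPM in Tfh, with a median of 6.13 CPM. TLCP libraries were spread on both sides of the Tfh range, and their coefficient of variation was 32.2%, against 19.7% in Tfh. The log2 fold change was 0.27 with an SE of 0.23. It was 0.54 within libraries 1 to 3 and -0.068 within libraries 4 to 6. The gene lies at chr3:89338542-89349996 on the minus strand, and 1263 bases of its exons overlap 4731419I09Rik on the other strand.

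Adam8, known from myeloid cells and lymphocytes and able to cut CD23, was the least abundant of the 6. Its lowest, median and highest values were 2.04, 3.4 and 5.30 CPM in TLCP, from 17 to 54 reads a library. In Tfh they were 0.359, 1.22 and 1.83 CPM, from 3 to 23 reads. The ranges did not overlap, but the lowest TLCP and the highest Tfh library were close together, and the lowest Tfh library held 3 reads, the count that sets the detection limit. The log2 fold change was 1.63 with an SE of 0.41, an SE several times that of Adam19. Tfh libraries 1 to 3 held 0.359 to 0.708 CPM (3 to 8 reads) and Tfh libraries 4 to 6 held 1.74 to 1.83 CPM (11 to 23 reads), whereas TLCP ran from 2.04 to 4.80 CPM in libraries 1 to 3 and from 2.55 to 5.30 CPM in libraries 4 to 6. Within libraries 1 to 3 the log2 fold change was 2.45, and within libraries 4 to 6 it was 1.17. No label names these sets as batches. Markers of other cells were split in the same way in Tfh: neutrophil markers summed to 0.478 to 4.51 CPM in libraries 1 to 3 and 30.6 to 37.4 CPM in libraries 4 to 6, and erythroid and platelet markers to 3.71 to 32.3 CPM in libraries 1 to 3 and 55.5 to 85 CPM in libraries 4 to 6. The B cell sum was 1024 to 1385 CPM in Tfh libraries 1 to 3 and 1617 to 1857 CPM in Tfh libraries 4 to 6, and the plasma cell sum 32.0 to 137 CPM and 219 to 394 CPM in the same sets. Dendritic cell markers summed to 0.708 to 1.87 CPM in Tfh libraries 1 to 3 and 2.73 to 7.01 CPM in Tfh libraries 4 to 6. Basophil and mast cell markers summed to 0.239 to 1.97 CPM and 2.73 to 7.17 CPM in the same sets. The macrophage and monocyte sums of the sets overlapped, at 17.8 to 41.2 CPM in Tfh libraries 1 to 3 and 29.6 to 82.3 CPM in Tfh libraries 4 to 6. So did the CD8 T cell and NK cell sums, at 15.8 to 17.8 CPM and 15.1 to 22.3 CPM. In TLCP the neutrophil sum was 9.36 to 15.1 CPM in libraries 1 to 3 and 5.96 to 54.5 CPM in libraries 4 to 6, and Adam8 was at 5.30 CPM where that sum was highest and at 4.24 CPM where it was lowest. The macrophage and monocyte sum was 111, 79.8 and 50.0 CPM in TLCP libraries 1, 5 and 6, where Adam8 was at 4.80, 5.30 and 4.24 CPM. That sum was 30.2, 35.7 and 46.4 CPM in TLCP libraries 2, 3 and 4, where Adam8 was at 2.50, 2.04 and 2.55 CPM. The erythroid and platelet sum was split likewise. It was 105, 64.1 and 64.7 CPM in TLCP libraries 1, 5 and 6 and 37.1, 48.5 and 38.7 CPM in TLCP libraries 2, 3 and 4. The sums of the other marker lists overlapped between these sets of TLCP libraries. The part of these cells in the Adam8 values was not tested. The gene lies at chr7:139978932-139992562 on the minus strand.

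**Figure D1:**
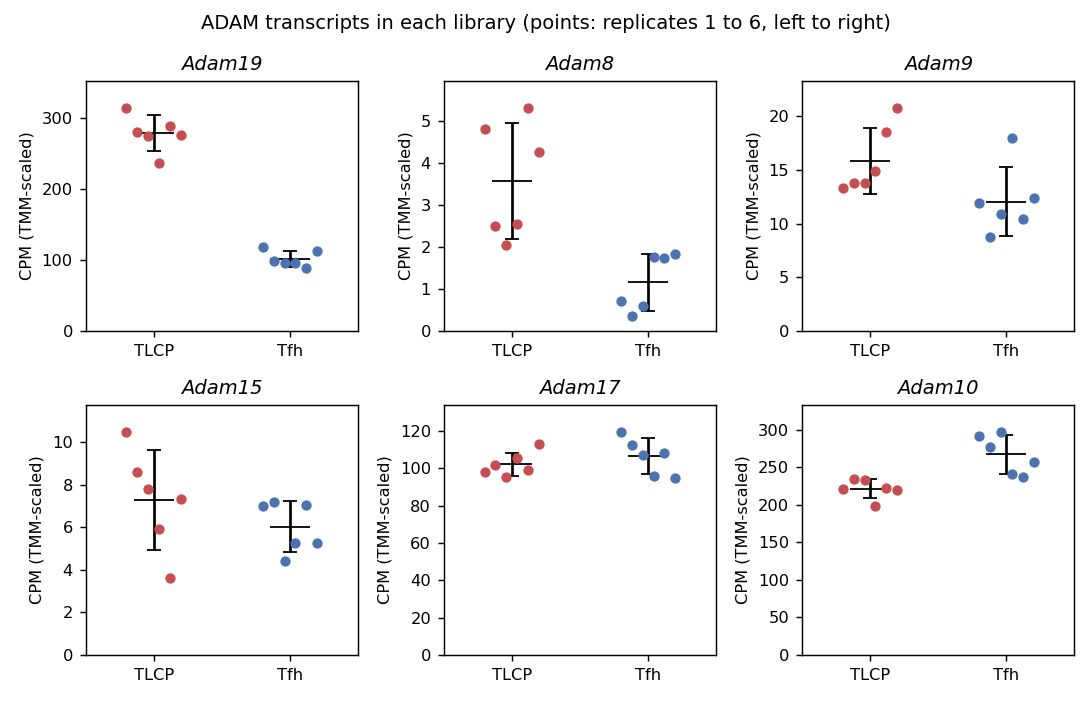
Level of each of the 6 ADAM transcripts in each library, in TMM-scaled CPM on axes that start at 0, with 1 point per library (replicates 1 to 6 from left to right), TLCP left of Tfh, the horizontal line at the mean and the bar 1 SD either way. The 6 TLCP points of Adam19 lie between 237 and 314 CPM and its 6 Tfh points between 88.5 and 119 CPM, while the points of Adam17, Adam9 and Adam15 overlap.

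Adam8 was the gene just inside the low-count filter, and Adam23 the gene just outside it, at a mean of 0.980 CPM over the 12 libraries. ADAM23 is a neuronal adhesion protein without protease activity. It had 8 to 40 reads a library in TLCP (96 in all) and 1 to 5 in Tfh (17 in all), so that every TLCP library had more reads than every Tfh library. Adam11, another ADAM without the zinc-binding histidines, had 4 to 20 reads in each TLCP library, 56 in all, and 0 reads in the 6 Tfh libraries. Against the limit that 0 reads allow (3 counts over the Tfh group), its level over the TLCP group was 18.1-fold higher. That value leaves out the spread between TLCP libraries, which ran from 0.435 to 1.81 CPM. Both genes were chosen for mention after their values were seen. With no low-count filter edgeR gave Adam23 an adjusted p of 0.0033 and Adam11 an adjusted p of 2.8e-05, and DESeq2 gave 0.00086 and 6.9e-06.

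Levels of different genes were compared only per length, in the TPM (read counts per length, scaled to one total in every library) deposited by the authors. In TLCP the order of mean TPM was Adam10 at 118 ± 9.13, Adam19 at 103 ± 13.9, Adam17 at 37.5 ± 5.53, Adam9 at 10.2 ± 2.7, Adam15 at 3.11 ± 1.06 and Adam8 at 2.06 ± 0.886 (SD, n = 6). Adam10 and Adam19 lay within their summed SDs in TLCP, although Adam10 was above Adam19 in 6 of 6 libraries. Adam15 and Adam8 also lay within their summed SDs there. In Tfh the order was Adam10 at 118 ± 27.6, Adam17 at 32.3 ± 7.14, Adam19 at 31.3 ± 8.30, Adam9 at 6.29 ± 1.66, Adam15 at 2.12 ± 0.571 and Adam8 at 0.521 ± 0.281 TPM (SD, n = 6). Adam17 and Adam19 were the only neighbours within their summed SDs in Tfh, with Adam17 above in 4 of 6 libraries. Adam19 thus held the second place in TLCP, close to Adam10, and the third in Tfh, level with Adam17.

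The ratio of a pair of transcripts within a library does not depend on how libraries are scaled to each other. The TPM ratio of Adam19 to Adam10 had a lowest, median and highest value of 0.815, 0.848 and 0.982 in TLCP and of 0.222, 0.266 and 0.304 in Tfh. Adam19 was thus nearly as abundant as Adam10 in every TLCP library and well under it in every Tfh library. The ratio of Adam19 to Adam17 was 2.26, 2.83 and 3.22 in TLCP and 0.820, 0.947 and 1.20 in Tfh, again without overlap. The ratio of Adam10 to Adam17 ran from 2.75 to 3.56 in TLCP and from 3.18 to 4.04 in Tfh, which overlapped. The ratio of Adam9 to Adam15 overlapped as well, at 1.89 to 7.63 in TLCP and 1.82 to 5.11 in Tfh.

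As a share of the summed TPM of the 6 genes, Adam19 made up 35.6% to 40.6% in TLCP (mean 37.5 ± 1.77%) and 14.6% to 18.5% in Tfh (mean 16.3 ± 1.41%, SD, n = 6 each). Adam10 made up 41.3% to 45.4% in TLCP and 60.2% to 65.4% in Tfh. Adam17 made up 12.6% to 15.7% in TLCP and 15.5% to 19.0% in Tfh. The shares add up to a whole, so the higher share of Adam19 in TLCP lowers the others there. The remaining genes were small parts in both populations, with Adam9 at 2.97% to 4.74% in TLCP and 2.37% to 5.35% in Tfh, and Adam8 at 0.422% to 1.08% in TLCP and 0.0864% to 0.469% in Tfh. The summed TPM of the 6 genes had a lowest, median and highest value of 234, 267 and 312 in TLCP and of 139, 193 and 262 in Tfh, which overlapped.

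**Figure D2:**
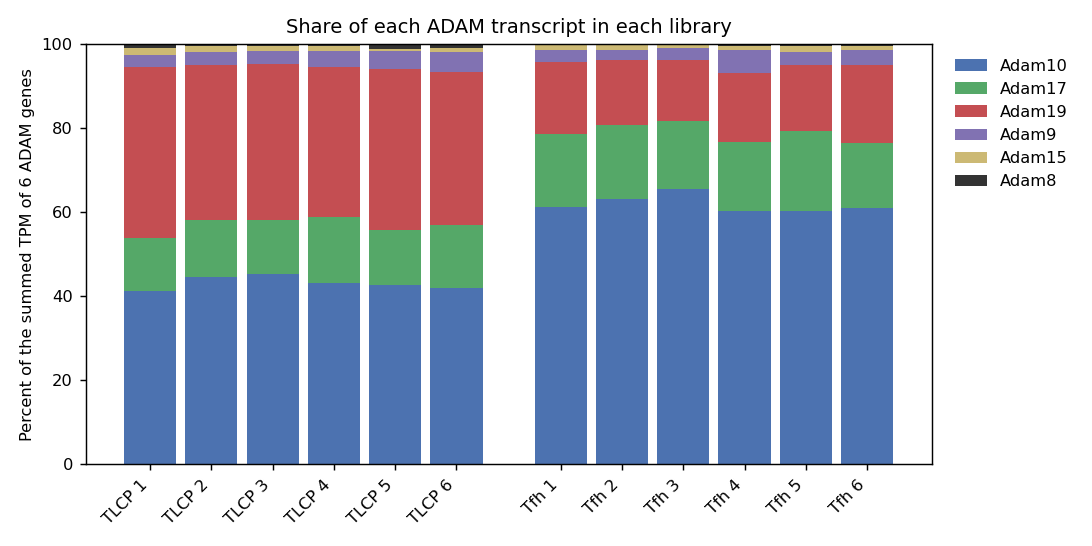
Percent of the summed TPM of the 6 ADAM genes that each gene held in each library, as stacked bars from 0 to 100, the 6 TLCP libraries left of the 6 Tfh libraries. The Adam19 part takes 35.6% to 40.6% of the TLCP bars and 14.6% to 18.5% of the Tfh bars, and the Adam10 part 41.3% to 45.4% of the TLCP bars and 60.2% to 65.4% of the Tfh bars.

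The direction of Adam10 and Adam17 depended on the scaling, while Adam9, Adam15, Adam19 and Adam8 stayed higher in TLCP under TMM, RLE size factors, library totals alone and TPM. CT010467.1, which resembles ribosomal RNA, took 12.9% to 24.1% of the assigned reads in TLCP and 16.6% to 30.9% in Tfh. Scaled by library totals alone, the median gene stood at 0.17 on the log2 scale, and in log2(TPM + 1), with a pseudocount of 1, at 0.25. The split of called genes moved with it, to 3207 higher and 893 lower with library totals alone and 3176 higher and 465 lower in TPM, against 2014 higher and 1969 lower with TMM. Adam10 stood at -0.11 with library totals alone and at 0.02 in log2(TPM + 1), so its lower level in TLCP holds relative to the median gene (-0.27 with library totals alone and -0.23 in TPM after the median is taken off) and not in absolute TPM. Adam17 stood at 0.11 with library totals alone and 0.22 in TPM. Adam9 stood at 0.58 and 0.62 under these scalings, and Adam15 at 0.44 and 0.37. Adam19 stood at 1.61 with library totals alone and 1.71 in TPM, and at 1.45 under both once the median gene was taken off. The log2(TPM + 1) scale understates changes of low genes, and there Adam8 stood at 0.97. The authors' deposited table gave log2 fold changes of 1.46 for Adam19, 1.65 for Adam8, 0.42 for Adam9, 0.28 for Adam15, -0.05 for Adam17 and -0.26 for Adam10.

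**Figure D3:**
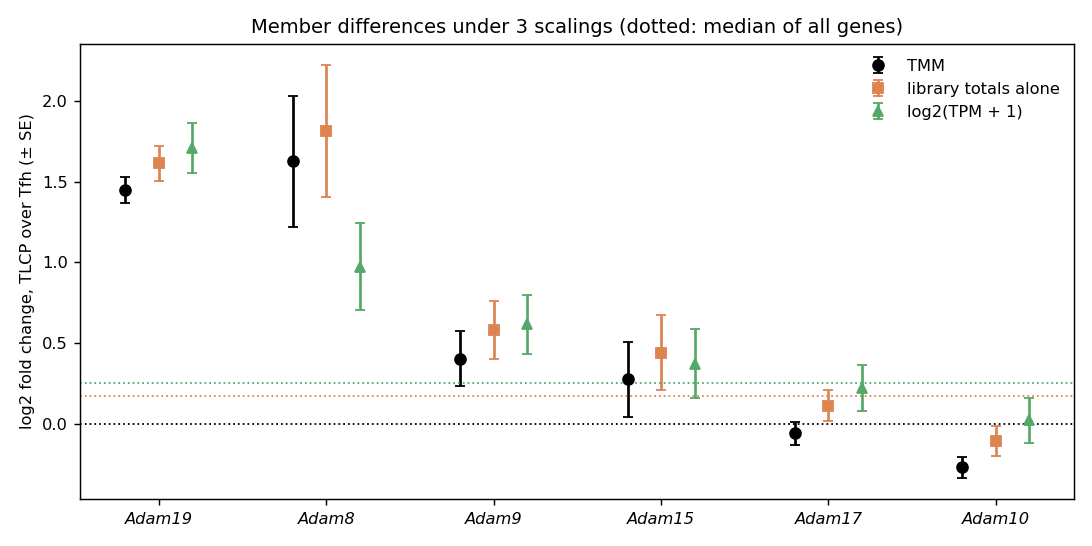
Log2 fold change (TLCP over Tfh) of each ADAM gene with its SE under TMM scaling, library totals alone and log2(TPM + 1), with dotted lines at the median of all genes under each scaling. Adam19 stays between 1.45 and 1.71, whereas Adam10 runs from -0.27 with TMM to 0.02 in TPM.

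The B cell and plasma cell markers that were higher in TLCP varied between its libraries, which allows the ADAM values to be read beside them. In TLCP replicate 5, with the highest B cell sum (23597 CPM) and plasma cell sum (3237 CPM), Adam19 was at 289 CPM, and in replicate 2, with the lowest sums, at 281 CPM. Replicate 4, next highest in both sums (16967.5 and 2462 CPM), held the lowest Adam19 level of the TLCP libraries, at 237 CPM. Without the TLCP libraries 5 and 4, the 2 with the most B cell list counts, the log2 fold change of Adam19 was 1.48, that of Adam8 1.55, that of Adam9 0.36, that of Adam15 0.50, that of Adam10 -0.24 and that of Adam17 -0.07. Adam8 was at 5.30 CPM in replicate 5, 2.55 CPM in replicate 4 and 2.50 CPM in replicate 2. Adam15 was at 3.63 CPM in replicate 5, 5.92 CPM in replicate 4 and 8.59 CPM in replicate 2. The part that these other cells take in the levels of the 6 genes was not tested.

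The genes whose pattern over the 12 libraries was nearest to Adam19 were Tmem154, S1pr1 and Spice1, by the mean absolute difference of log2(CPM + 1) after each gene was centred on its own mean. Tmem154 encodes a little studied membrane protein, S1PR1 is the receptor by which lymphocytes leave lymphoid organs, and Spice1 encodes a centriole protein. The mean difference from Adam19 was 0.105 for Tmem154, 0.108 for S1pr1 and 0.126 for Spice1. S1pr1 ran from 233 to 277 CPM in TLCP and from 89.6 to 114 CPM in Tfh. Per length it stood above Adam19, at a mean of 220 TPM in TLCP and 72.3 TPM in Tfh. The means of Adam19 were 103 TPM in TLCP and 31.3 TPM in Tfh. Nearest to Adam8 were Icam1, the adhesion molecule that binds the integrin LFA-1, at 0.182, Cdkn1a, the cell cycle inhibitor p21, at 0.183, and Irs2, an adaptor of insulin and IL-4 receptor signalling, at 0.203. The likeness of Adam8 was looser. Icam1 ran from 53.9 to 96.1 CPM in TLCP and from 27.0 to 46.2 CPM in Tfh. Per length Icam1 stood far above Adam8, at a mean of 42.3 TPM in TLCP and 17.8 TPM in Tfh. The means of Adam8 were 2.06 TPM in TLCP and 0.521 TPM in Tfh.

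The windows around the transcription start are shown for Adam19 and Adam8, the members that were higher in TLCP without overlap, because they let the sequence upstream of both be compared. They are taken from RefSeq on GRCm38.p6 and cover 300 bases around the start, most of them before it, 5′ to 3′ on the strand of the gene. Capitals mark the AP-1 motif TGANTCA, the GC box GGGCGG and the CCAAT box (CCAAT), on either strand, none of which overlap each other here.
Adam19: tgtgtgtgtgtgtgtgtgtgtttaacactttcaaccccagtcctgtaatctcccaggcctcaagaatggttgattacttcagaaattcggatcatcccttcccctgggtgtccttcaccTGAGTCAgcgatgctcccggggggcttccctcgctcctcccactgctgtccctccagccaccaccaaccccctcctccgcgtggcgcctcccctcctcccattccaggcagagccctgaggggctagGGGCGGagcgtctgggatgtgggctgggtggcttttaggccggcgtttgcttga
Adam8: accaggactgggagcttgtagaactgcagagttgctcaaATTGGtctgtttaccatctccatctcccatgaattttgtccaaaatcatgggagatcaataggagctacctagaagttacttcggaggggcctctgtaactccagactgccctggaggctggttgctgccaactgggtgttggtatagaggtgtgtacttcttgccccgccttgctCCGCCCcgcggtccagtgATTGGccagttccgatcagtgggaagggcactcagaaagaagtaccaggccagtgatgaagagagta
The Adam19 window lies at chr11:46055734-46056033 on the plus strand and is the nearest of 3 listed for the gene to its annotated start. It held 1 AP-1 motif and 1 GC box, no CCAAT box, and 60.3% G and C. The Adam8 window lies at chr7:139992513-139992812 on the minus strand and held no AP-1 motif, 1 GC box and 2 CCAAT boxes, with 52.3% G and C. Over the 32851 RefSeq windows of this length, 7.81% held the AP-1 motif, 35.7% the GC box and 37.4% the CCAAT box. These matches describe letters in a window only. Windows were listed for 5 of the 6 genes, Adam9 being the other.

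The pathway around these proteases was described with lists of related proteases, partners, inhibitors, gamma-secretase subunits and substrates, each tested with edgeR within the fit over all 12015 genes and read beside the 33.2% of all tested genes that were called. These lists are counted, and no test was made of a list as a whole. Since the lists were chosen with earlier results of these data known, no excess over that share is read from their counts.

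Partners that mature, carry or anchor ADAM proteins changed in both directions. Of 22 listed, 15 were tested, 6 rose and 3 fell in TLCP, and 6 did not pass, with a median log2 fold change of 0.24, against -0.0041 over all tested genes. Snx9, a sorting nexin that binds the tails of ADAM9 and ADAM15, ran from 41.8 to 66.1 CPM in TLCP (median 48.8) and from 10.5 to 18.5 CPM in Tfh (median 12.8). Its log2 fold change was 1.87 with an SE of 0.14 (edgeR adjusted p = 8.8e-09). Rhbdf2 encodes iRhom2, which carries ADAM17 to the cell surface in immune cells. It rose as well, at 7.25 to 15.3 CPM in TLCP and 3.94 to 6.70 CPM in Tfh (log2 fold change 0.90, SE 0.22, edgeR adjusted p = 0.0033). Itgb1, the beta chain of integrins that bind ADAM disintegrin domains, rose by 0.26 on the log2 scale with an SE of 0.062 (edgeR adjusted p = 0.0032). The other genes that rose, named after their values were seen, were Furin, Frmd8 and Plk2. Furin, a convertase that removes ADAM prodomains, was 1.18 higher on the log2 scale with an SE of 0.28 (edgeR adjusted p = 0.0073). Frmd8, which stabilises the iRhoms, was 0.30 higher with an SE of 0.075 (edgeR adjusted p = 0.0040). Plk2, a kinase of ADAM17, was 1.24 higher with an SE of 0.46 (edgeR adjusted p = 0.045), and this call was lost without any of TLCP libraries 2, 4 and 6 and Tfh libraries 1, 2, 3, 4 and 6 (adjusted p = 0.13 without TLCP library 6).

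The partners that fell were tetraspanins. Tspan5, which escorts ADAM10 to the cell surface, ran from 30.2 to 40.9 CPM in TLCP (median 35.2) and from 75.5 to 98.5 CPM in Tfh (median 86.4). The groups lay far apart, and the log2 fold change was -1.3 with an SE of 0.086 (edgeR adjusted p = 1.0e-09). Tspan14, of the same subfamily, ran from 37.9 to 56.7 CPM in TLCP and from 58.7 to 68.2 CPM in Tfh (log2 fold change -0.41, SE 0.091, edgeR adjusted p = 0.0018), and this call was lost with library totals alone (-0.24, adjusted p = 0.069) and in log2(TPM + 1) (-0.12, limma adjusted p = 0.48). Cd9, a tetraspanin found in complexes with ADAM10 and ADAM17, overlapped between the groups at 16.2 to 30.6 CPM in TLCP and 27.3 to 45.9 CPM in Tfh and was lower in TLCP by 0.71 on the log2 scale with an SE of 0.14 (edgeR adjusted p = 0.00074, but limma adjusted p = 0.059 in log2(TPM + 1)). Pcsk7, a convertase like furin, stood at 0.0035 on the log2 scale with an SE of 0.095 and did not pass.

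Among inhibitors of these proteases, 2 of 5 listed genes were tested. Timp2, a secreted inhibitor mainly of matrix metalloproteinases, fell to 55.5 to 81.3 CPM in TLCP (median 72.1), against 106 to 136 CPM in Tfh (median 122). The ranges lay apart, and the log2 fold change was -0.81 with an SE of 0.090 (edgeR adjusted p = 1.1e-06). Reck, a membrane-anchored inhibitor, stood at -0.23 with an SE of 0.23 and did not pass, and the median of the pair was -0.52. Timp1, Timp3 and Timp4 were not tested.

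Gamma-secretase cuts the stumps that shedding leaves in the membrane, as in Notch signalling after the cut by ADAM10. Of 7 listed subunits 6 were tested, of which 0 rose and 2 fell in TLCP, a share at the background, with a median log2 fold change of -0.17. Psen2, a catalytic subunit, ran from 32.4 to 45.9 CPM in TLCP and from 48.7 to 57.5 CPM in Tfh (log2 fold change -0.47, SE 0.092, edgeR adjusted p = 0.00060), but did not pass in log2(TPM + 1) (-0.18, limma adjusted p = 0.35). With any of TLCP libraries 1, 2 and 3 and Tfh libraries 3, 4, 5 and 6 left out, 1 subunit was called in place of 2.

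Of 28 listed substrates 23 were tested, of which 10 rose and 6 fell in TLCP and 7 did not pass, with a median log2 fold change of 0.35. Without the 2 TLCP libraries with the most B cell list counts, the median was 0.21 over 24 tested substrates, with 10 higher and 6 lower. Lag3, whose protein was a marker of the sort, is among the 10 and serves only as a check of the labels. Tnfrsf1b, the TNF receptor TNFR2 that ADAM17 sheds, ran from 175 to 208 CPM in TLCP (median 201) and from 44.9 to 96.0 CPM in Tfh (median 64.3). Its log2 fold change was 1.57 with an SE of 0.14 (edgeR adjusted p = 1.1e-06). Selplg, the selectin ligand PSGL-1, was at 94.1 to 136 CPM in TLCP and 33.4 to 59.6 CPM in Tfh (log2 fold change 1.3, SE 0.13, edgeR adjusted p = 2.6e-06). Every TLCP library was above every Tfh library for both genes. Notch1 and Notch2 encode receptors cut by ADAM10 and are named after their values were seen. Notch1 was higher by 0.37 on the log2 scale with an SE of 0.079 (edgeR adjusted p = 0.0012), and Notch2 by 0.51 with an SE of 0.11 (edgeR adjusted p = 0.0014).

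The substrates that fell included helper molecules of T cells. Tnfrsf8, the receptor CD30, ran from 7.5 to 14.5 CPM in TLCP (median 9.30) and from 30.7 to 45.6 CPM in Tfh (median 35.4), with a log2 fold change of -1.81 and an SE of 0.15 (edgeR adjusted p = 1.7e-08). Cd40lg, the CD40 ligand that T cells show to B cells, was at 51.0 to 75.1 CPM in TLCP and 134 to 178 CPM in Tfh (log2 fold change -1.28, SE 0.092, edgeR adjusted p = 3.3e-09). Cd44, the hyaluronan receptor, was at 142 to 204 CPM in TLCP and 362 to 466 CPM in Tfh (log2 fold change -1.20, SE 0.088, edgeR adjusted p = 5.8e-09). None of these ranges overlapped between the populations. The list thus changed in both directions, and Tnf, the namesake target of ADAM17, did not pass (log2 fold change -0.38, SE 0.15, edgeR adjusted p = 0.065), but passed with the replicate block (edgeR adjusted p = 0.031). Fcer2a, which encodes CD23, rose with the B cell list, of which it is a member, at 24.8 to 117 CPM in TLCP and 4.34 to 24.5 CPM in Tfh (log2 fold change 2.30, SE 0.49, edgeR adjusted p = 0.0046), and the part of B cells in that result was not tested.

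**Figure D4:**
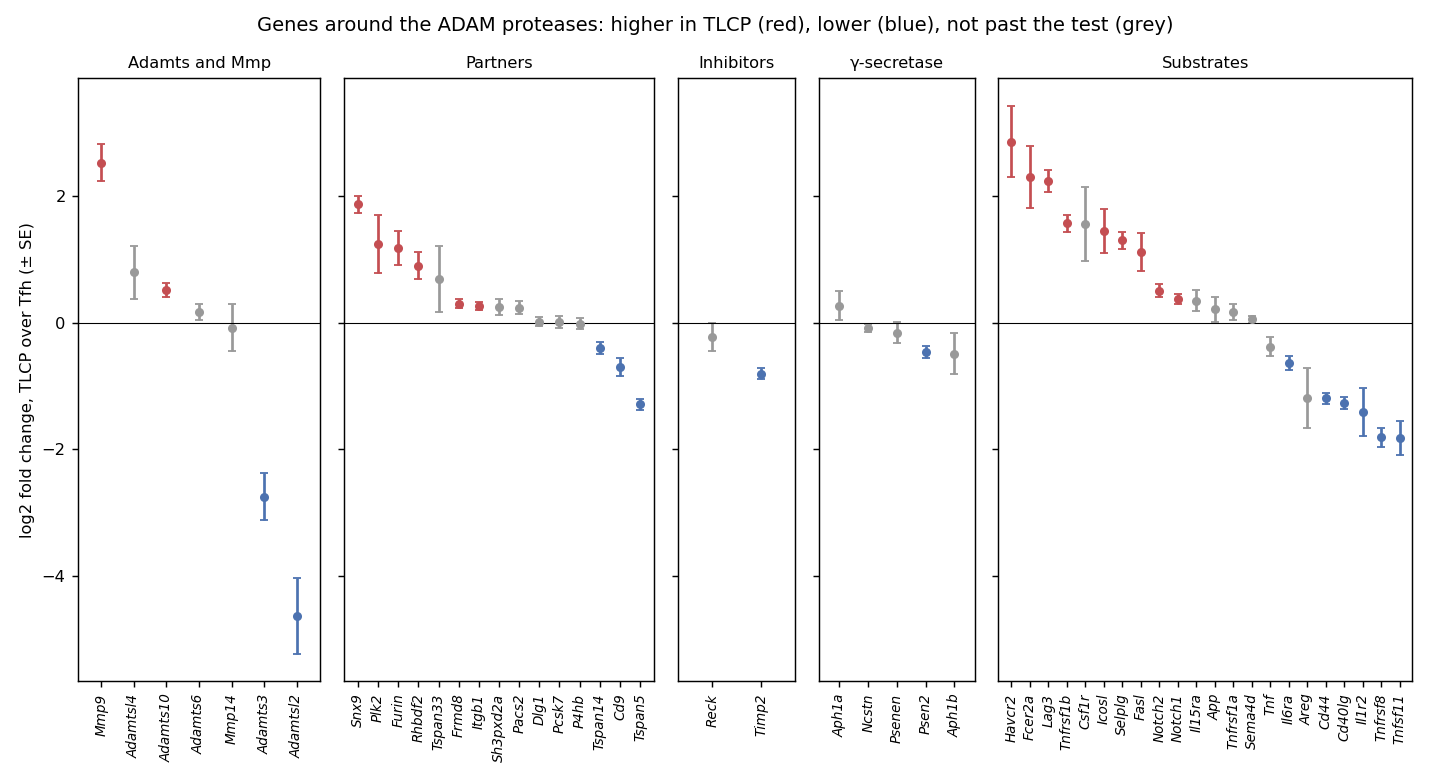
Log2 fold change (TLCP over Tfh) with its SE for tested genes of the 5 lists around the ADAM proteases, sorted within each list, red where edgeR called a gene higher, blue where it called it lower and grey where it did not pass. Partners and substrates have genes on both sides of 0, from 1.87 for Snx9 to -1.3 for Tspan5 among partners, and Timp2 lies at -0.81.

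Of the related proteases, the 47 Adamts, Adamtsl and Mmp genes in the files, 7 were tested, with 2 higher and 2 lower in TLCP, 3 not passing and a median log2 fold change of 0.16. Mmp9, the secreted gelatinase B, ran from 4.13 to 11.8 CPM in TLCP (median 7.59) and from 0.955 to 1.77 CPM in Tfh (median 1.11). The ranges lay apart, and the log2 fold change was 2.53 with an SE of 0.29 (edgeR adjusted p = 1.5e-06). Adamts10, a secreted protease linked to fibrillin microfibrils, was at 48.8 to 85.8 CPM in TLCP and 38.7 to 53.7 CPM in Tfh (log2 fold change 0.51, SE 0.11, edgeR adjusted p = 0.0017). Adamts3, which trims procollagen, ran from 0.0903 to 2.2 CPM in TLCP and from 7.48 to 9.65 CPM in Tfh (log2 fold change -2.76, SE 0.37, edgeR adjusted p = 1.3e-05). Adamtsl2, a secreted relative without a protease domain, had 8 reads in all in TLCP, where 3 libraries were at 0, and 208 in Tfh (log2 fold change -4.64, SE 0.59, edgeR adjusted p = 5.5e-06).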

How the data were processed

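RNA from 12 libraries was compared, 6 TLCP and 6 Tfh. Per the submitters' processing notes, STAR 2.7.1a, GRCm38 and DESeq2 1.30.1 were used. The authors deposited read counts per gene in the layout of STAR, of which the stranded column was used, TPM values, and a table of their own log2 fold changes, p-values, test score, SE and a normalized signal per library. That deposited signal gave whole reads for 100% of values (tolerance 0.01 reads), equal to the stranded counts, and a refit on those reads called 3983 genes. Between 44.9% and 56.4% of reads named no gene and were left out. Positions are from GENCODE M21, in which 54349 of 55401 genes had the spans of the files.

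Counts were fitted in R 4.3.3 with edgeR 4.0.16 (filterByExpr, TMM, robust quasi-likelihood test, 2-sided) and adjusted by Benjamini and Hochberg over 12015 genes at 0.05. The method was tried on simulated data with far fewer changed genes than were called here and the same spread for every gene. The SE of a log2 fold change was taken as its size over the root of F. Alternatives were RLE size factors, DESeq2 1.42.0, limma 3.58.1 on log2(TPM + 1), no filter, unstranded counts, library totals alone, ribosomal RNA genes left out, the replicate block, libraries 1 to 3 or 4 to 6, and each library left out. Chosen once the values were known were TPM from GENCODE exonic lengths, the refit on recovered reads, and a fit without the 2 TLCP libraries highest in B cell counts.

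Same-numbered TLCP and Tfh libraries deviated together (correlation 0.127 to 0.318, against up to 0.209 for other numbers, with 9 of 12 libraries nearest to their own number). The main fit, and the SEs and adjusted p from it, were nevertheless made without pairing. The numbers were used as pairs only in the replicate block and in the count of pairs given for Adam10. That pairing comes from the data and the shared numbers. No label says whether replicates were separate sorts, so p-values measure the spread between these libraries. The 6 genes and all lists were chosen with earlier results of these data known. Named were all members, up to 3 genes with the smallest p in each direction of each list, the 2 most abundant genes of each marker list, the 3 genes nearest to each of the 2 members with the largest fold changes, and those said to be chosen after their values were seen. A further 2 genes are counted in their lists and not reported here.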

Additional observations from a re-analysis of the deposited data

Results flagged for a closer look

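Among the genes of the lists, 126 groups of 6 libraries were checked for a library that stands apart, and 1 was found, fewer than the about 1 in 20 that chance gives. Fcer2a, the B cell gene that encodes CD23, was at 117 CPM in TLCP replicate 6, and the nearest TLCP library was at 54.8 CPM. The gap was 0.675 of the whole range of the group, above Dixon's critical value for 6 samples. The B cell sum of that library was 8518 CPM, within the 4572 to 23597 CPM of the other TLCP libraries. None of the 6 ADAM genes had such a library in TLCP or in Tfh.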

How the results depend on the processing

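Adam19 was 1.61 with library totals alone and 1.71 in log2(TPM + 1), Adam10 was -0.11 and 0.020, and Adam17 was 0.11 and 0.22. With libraries 1 to 3 alone Adam17 was -0.20, Adam15 0.54 and Adam8 2.45. With libraries 4 to 6 alone Adam17 was 0.071 and Adam15 -0.068, so the sign of both genes differed between the sets. These are log2 fold changes. Leaving out each library gave -0.31 to -0.24 for Adam10, -0.10 to -0.03 for Adam17, 1.41 to 1.5 for Adam19, 0.30 to 0.54 for Adam9, 0.14 to 0.41 for Adam15 and 1.45 to 1.83 for Adam8.

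Genes called over the whole table numbered 3983, and 3489 to 4008 with a library left out, 4414 by DESeq2 and 3129 without the 2 TLCP libraries with the most B cell counts. Of the ADAM genes outside the 6, 0 were tested, against 2 called by DESeq2 and 2 with no filter. With a library left out 0 to 1 was called, the 1 without TLCP library 2, Tfh library 2 or Tfh library 4, where the filter let a gene through. The gamma-secretase list had 1 gene called with RLE size factors, library totals alone, libraries 1 to 3, libraries 4 to 6, no filter, or without the 2 TLCP libraries, 0 in log2(TPM + 1), and 1 to 2 with a library left out. Fitted on 3 libraries a group, Frmd8 (edgeR adjusted p = 0.11) and Fcer2a (0.12) were no longer called in libraries 4 to 6, nor Tspan14 (0.057) in libraries 1 to 3, nor Plk2 in either set (0.15 in libraries 1 to 3, 0.074 in libraries 4 to 6). Among substrates, Fasl lost its call in both sets (0.061 in libraries 1 to 3, 0.053 in libraries 4 to 6). Icosl lost it in libraries 1 to 3 (0.12) and Il1r2 in libraries 4 to 6 (0.087). Adamtsl4 passed in libraries 1 to 3 (0.016) and Tnf in libraries 4 to 6 (0.0061). Beyond the scaling, the cause of these moves was not tested. With a library left out, 8 to 10 partners, 4 to 5 Adamts and Mmp genes, 16 to 18 substrates and 1 inhibitor were called.

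With the replicate block 4453 genes were called, and the log2 fold changes were -0.27 for Adam10, -0.06 for Adam17, 1.45 for Adam19, 0.41 for Adam9, 0.25 for Adam15 and 1.69 for Adam8. In the pairing Adamtsl4 (adjusted p = 0.031), Csf1r (0.0018), Pacs2 (0.047) and Tnf (0.031) passed that had not, and no other call of a listed gene changed.

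Levels per length from the files' own gene lengths were not run, since the files give spans and not exonic lengths. TPM from GENCODE exonic lengths gave the same order and ratios. Depth limits Adam8, with 3 to 54 reads a library, and the ADAM genes below the filter.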

Other observations

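Below the low-count filter, several further ADAM transcripts were present at a few reads a library. Adam1a, a gene of the sperm fertilin complex, had 50 reads in TLCP and 42 in Tfh, and Adam4, known from testis, had 37 in TLCP and 47 in Tfh. Adam6b, which lies within the immunoglobulin heavy chain locus, had 24 reads in TLCP and 19 in Tfh. Adam12, or meltrin alpha, had 22 reads in TLCP, 13 of them in a single library, and 3 in Tfh. Adam28, an ADAM of lymphocytes, had 13 reads in TLCP and 3 in Tfh. With no filter edgeR called none of these 5 (adjusted p = 0.83, 0.77, 0.85, 0.13 and 0.29), and DESeq2 called none of them either, while both tools called Adam23 and Adam11.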
